A study of Homo sapiens with 24 samples.

Results

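The Hedgehog pathway genes described here are 9 named genes of that signalling route: the ligand gene SHH, the surface proteins PTCH1, HHIP, BOC and GAS1, the transducer SMO, and the transcription factors GLI1, GLI2 and GLI3. They were taken by name from 2 deposited RNA-seq count tables. All 9 were found among the 61544 identifiers of the organoid table, and 5 of them (PTCH1, GLI1, GLI3, HHIP and BOC) among the 10221 genes of the table of neural progenitor cells (NPCs). SHH, SMO, GLI2 and GAS1 were not analysed here in NPCs. Every listed gene passed the filter on low counts.

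All libraries derive from the established line H9 of human embryonic stem cells. Before differentiation they received lentivirus carrying 1 of 2 short hairpin RNAs against KDM2A, labelled sh1 and sh4, or a scrambled hairpin, labelled NC. Cells of all groups were selected with puromycin. KDM2A encodes a histone demethylase whose CXXC domain binds unmethylated CpG. NPCs gave 5 libraries each of sh1, sh4 and NC, and cerebral organoids at day 30, which are neural aggregates grown from stem cells, gave 3 libraries each of sh1, sh4 and NC. Whether replicates were separate cultures or clones is not in the labels. The p-values therefore reflect the spread among these libraries alone, and that spread may be technical.

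Hedgehog ligands such as SHH are secreted proteins that pattern the ventral neural tube. In the absence of ligand the receptor PTCH1 holds back SMO, and GLI3 is cut to a repressor in a process that uses the primary cilium. When ligand binds PTCH1, with BOC, CDON or GAS1 as co-receptors, SMO is released and GLI2 and GLI3 are kept as activators. GLI1, PTCH1 and HHIP are known transcriptional targets of the pathway: GLI1 is an activator, while PTCH1 and HHIP bind ligand and limit the response.

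Upstream sequence was available from RefSeq (GRCh38.p14) for 7 of the 9 genes, in 13 windows of the 250 bases before a transcript start. The 9-base GLI consensus GACCACCCA, searched on both strands with no other motif, was present in 1 of these windows, which belongs to PTCH1, and in 70 of all 35116 windows (0.199%). This PTCH1 window is shown because PTCH1 is the standard target of the pathway. It lies at chr9:95509267-95509516 on the minus strand, and the capitals mark the match to the consensus, 172 to 164 bases before the start.
PTCH1: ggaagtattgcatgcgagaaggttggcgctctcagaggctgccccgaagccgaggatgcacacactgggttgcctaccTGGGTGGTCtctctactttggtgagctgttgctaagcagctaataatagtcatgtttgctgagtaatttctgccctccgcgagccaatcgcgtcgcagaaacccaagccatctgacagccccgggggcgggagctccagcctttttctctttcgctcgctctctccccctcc

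HHIP and SHH are shown because they had the highest fold changes of the members in organoids, and because the targeted protein binds CpG. The capitals mark CpG. HHIP is given at chr4:144645906-144646020 on the plus strand, ending where the annotated gene begins, and SHH at chr7:155812464-155812713 on the minus strand.
HHIP: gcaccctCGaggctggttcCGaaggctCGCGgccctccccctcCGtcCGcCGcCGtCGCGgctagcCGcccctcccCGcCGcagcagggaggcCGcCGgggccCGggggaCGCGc
SHH: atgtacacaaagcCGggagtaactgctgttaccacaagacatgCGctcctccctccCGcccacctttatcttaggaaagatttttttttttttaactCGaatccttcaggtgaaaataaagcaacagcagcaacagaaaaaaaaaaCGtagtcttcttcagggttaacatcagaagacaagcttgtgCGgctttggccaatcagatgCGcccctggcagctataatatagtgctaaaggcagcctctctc
The full HHIP window held 34 CpG, more than 93.2% of all windows, and the SHH window held 7, more than 41.1% of them. The median over all windows was 11. These counts describe the sequence, and binding was not measured.

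Values are CPM, the counts of a gene relative to its library's total, with TMM normalization. In NPCs the total is that of the listed genes. A gene was called where edgeR's quasi-likelihood test gave a Benjamini-Hochberg adjusted p under 0.05 over all tested genes and a log2 fold change of at least 1 in size, the thresholds in the series' design text. "Rose" and "fell" are used for called genes. The NPC table appears to hold genes picked for differing with sh1, since 99.3% of its 9860 tested genes had an adjusted p under 0.05 for sh1, so an adjusted p alone says little there. Totals ran from 12.7 to 20.2 M counts in NPC libraries and from 15.9 to 18.9 M in organoid libraries.

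The targeted gene was checked first. KDM2A averaged 92.1 ± 4.15 CPM in sh1 NPCs and 95.1 ± 4.21 CPM in sh4 NPCs, against 186 ± 15.3 CPM in NC NPCs (SD, n = 5 each), a log2 fold change of -1.02 with sh1 and -0.97 with sh4. The sh1 value was -0.99 without NC replicate 1 and -0.98 without NC replicate 3, just short of the fold threshold. In organoids it averaged 110 ± 6.97 CPM in libraries labelled sh1 and 101 ± 4.89 CPM in those labelled sh4, against 100 ± 4.00 CPM in those labelled NC (SD, n = 3 each), with a log2 fold change of 0.14 (adjusted p = 0.127, edgeR) and 0.01 (adjusted p = 0.926, edgeR). The mean of KDM2A was thus not below NC in the organoids labelled as knockdown, although scaling by library size alone put sh4 at -0.27, and the organoid groups are named by their labels.

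In NPCs, the surface inhibitor HHIP fell with both hairpins, while the receptor PTCH1 was higher by less than the fold threshold and GLI1 rose with sh4. BOC and GLI3 differed from NC by up to 0.39 on the log2 scale. Of the 5 listed members, 1 was called with sh1 (HHIP) and 2 with sh4 (HHIP and GLI1). The sh1 comparison called 18.4% of all tested NPC genes, 6.31% higher and 12.1% lower. For sh4 it was 18.1%, 6.55% higher and 11.6% lower.

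HHIP (chromosome 4, 144646021 to 144745271, plus strand, GRCh38) binds Hedgehog ligands at the cell surface and sequesters them. Its level was 8.25, 6.31, 8.39, 5.12 and 5.96 CPM in sh1 NPCs and 6.10, 5.85, 8.07, 6.39 and 4.75 CPM in sh4 NPCs, against 29.32, 30.02, 28.24, 24.80 and 30.26 CPM in NC NPCs. None of the 10 hairpin libraries reached the lowest NC library, a lack of overlap that most tested NPC genes also showed. The hairpins overlapped each other. The log2 fold change was -2.08 ± 0.13 (SE, adjusted p = 4.23e-11, edgeR) with sh1 and -2.19 ± 0.13 (SE, adjusted p = 1.52e-11, edgeR) with sh4, which is 0.237 and 0.219 times the NC level. Between sh1 and sh4 the log2 difference was 0.12, with a 95% interval of -0.18 to 0.42. In bulk RNA, fewer cells expressing a gene and less RNA per cell cannot be told apart.

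PTCH1 (chromosome 9, 95442980 to 95517057, minus strand) encodes the Hedgehog receptor. Its level was 71.996, 75.74, 71.23, 73.68 and 70.63 CPM in sh1 NPCs and 64.09, 62.20, 59.01, 63.51 and 72.12 CPM in sh4 NPCs, against 40.74, 40.47, 40.40, 43.08 and 45.70 CPM in NC NPCs. Both hairpin groups lay wholly above NC. The log2 fold changes of 0.79 (adjusted p = 2.12e-10, edgeR) with sh1 and 0.61 (adjusted p = 7.11e-09, edgeR) with sh4 did not reach the fold threshold. Groups without overlap were common in this table, at 76.6% of tested genes for sh1 and 72.8% for sh4.

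BOC (chromosome 3, 113211003 to 113287459, plus strand), a co-receptor that binds ligand, was at 192.5 to 239.1 CPM (median 215.9) in sh1 NPCs and 155.6 to 187.5 CPM (median 177.8) in sh4 NPCs, against 154.2 to 178.4 CPM (median 161.9) in NC NPCs. The sh1 libraries lay above NC and the sh4 libraries overlapped it. The log2 fold change was 0.39 (adjusted p = 1.86e-05, edgeR) with sh1 and 0.07 (adjusted p = 0.333, edgeR) with sh4. BOC counts are uncertain: BOC shares 513 exon bases with CFAP44 on the opposite strand, the counting's strand setting is unknown here, and BOC values were fractional in all 15 NPC and all 9 organoid libraries. CFAP44 itself had log2 fold changes of -1.21 and -1.46 with sh1 and sh4 in NPCs, and of 1.53 and 2.02 in organoids.

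GLI1 (chromosome 12, 57460135 to 57472262, plus strand) encodes the activator that is itself a target of the pathway. Its level was 3.82, 4.17, 3.802, 4.10 and 4.52 CPM in sh1 NPCs and 7.64, 7.61, 6.78, 7.76 and 10.47 CPM in sh4 NPCs, against 2.45, 2.99, 2.48, 2.65 and 2.82 CPM in NC NPCs. The 3 groups did not overlap, with sh4 highest and NC lowest. No overlap between sh1 and sh4 was found for 20.6% of tested NPC genes. GLI1 rose with sh4 by a log2 fold change of 1.58 ± 0.12 (SE, adjusted p = 7.97e-10, edgeR), and was 0.61 ± 0.13 (SE, adjusted p = 3.11e-04, edgeR) above NC with sh1, under the fold threshold. The hairpins differed in GLI1 by -0.97 (sh1 over sh4, log2, adjusted p = 2.07e-06, edgeR).

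GLI3 (chromosome 7, 41960950 to 42237870, minus strand), whose product is the main repressor form of the family, was at 180.2 to 207.1 CPM (median 196.7) in sh1 NPCs and 142.1 to 163.8 CPM (median 153.5) in sh4 NPCs, against 148.5 to 180.1 CPM (median 161.5) in NC NPCs. The sh1 libraries lay just above NC, and the sh4 libraries overlapped it. The log2 fold change was 0.27 (adjusted p = 1.52e-04, edgeR) with sh1 and -0.09 (adjusted p = 0.120, edgeR) with sh4. Between sh1 and sh4, edgeR called 0 of the 5 members, as did DESeq2, although 4 had an unadjusted p under 0.05. GLI1 passed the fold threshold without sh1 replicate 5 (-1.01) and without sh4 replicate 3 (-1.03). Over all tested genes 4.6% were called between the hairpins.

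**Figure D1:**
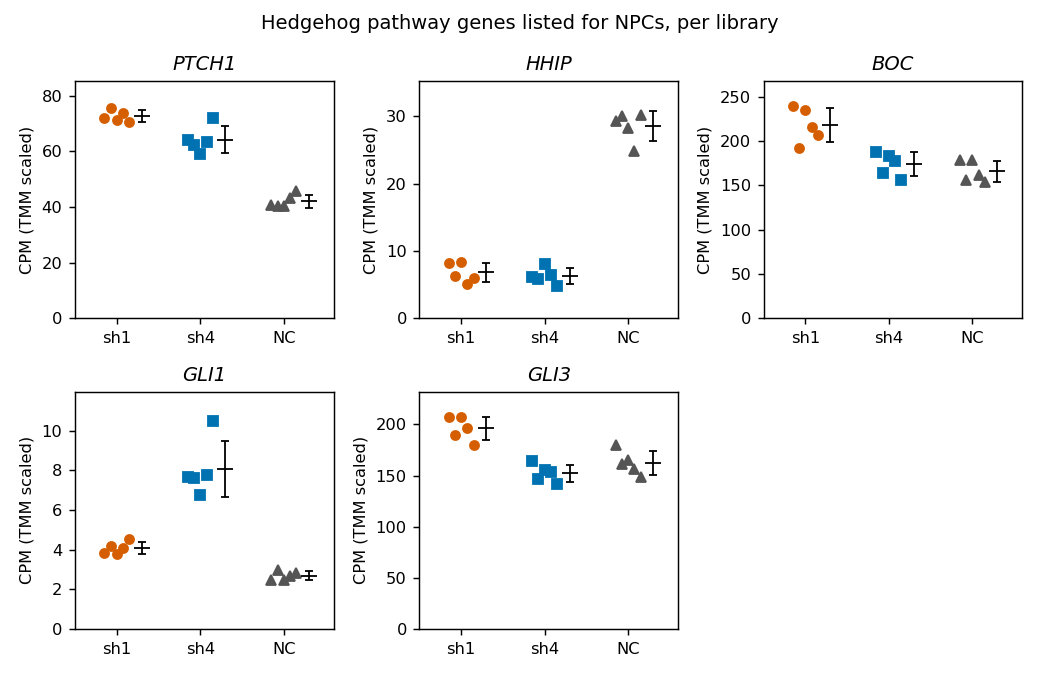
CPM (TMM scaled) of the 5 members listed for NPCs, 1 point per library and n = 5 per group, with the mean and SD beside each group. HHIP lies at 4.75 to 8.39 CPM in sh1 and sh4 libraries and at 24.80 to 30.26 CPM in NC libraries, while GLI1 is highest in sh4.

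In organoids HHIP rose in both the organoids labelled sh1 and those labelled sh4, SHH and GLI1 rose with sh1, and GLI3 fell with sh4. SMO and GAS1 were higher with both labels by less than the fold threshold, and PTCH1 overlapped NC. Of the 9 members, 3 were called with sh1 (all higher) and 2 with sh4 (HHIP higher, GLI3 lower). The label sh1 gave calls for 20% of all tested organoid genes, 12.1% higher and 7.92% lower. For the label sh4 it was 35.5%, 20% higher and 15.5% lower.

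SHH (chromosome 7, 155799986 to 155812273, minus strand), the ligand gene expressed by floor plate and notochord, was at 7.18, 24.06 and 9.70 CPM in organoids labelled sh1 and 11.36, 8.29 and 5.57 CPM in those labelled sh4, against 0.50, 3.79 and 5.16 CPM in those labelled NC. The lowest NC library held 9 SHH counts. Neither hairpin group overlapped NC, as was found for 62.1% of tested organoid genes with sh1 and for 73.1% with sh4. Of the sh1 libraries 1 stood well above all others. The log2 fold change was 2.12 ± 0.67 (SE, adjusted p = 0.0260, edgeR) with sh1 and 1.42 ± 0.67 (SE, adjusted p = 0.0850, edgeR) with sh4. The sh1 call rests on single libraries: without sh1 replicate 2 it was 1.43 (adjusted p = 0.112, edgeR), and without NC replicate 2 it was 2.28 (adjusted p = 0.0583, edgeR). The range over all 9 fits that left out 1 library was 1.43 to 2.66, with adjusted p from 0.0202 to 0.112 (edgeR).

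HHIP was at 10.42, 13.41 and 8.49 CPM in organoids labelled sh1 and 12.79, 8.47 and 6.59 CPM in those labelled sh4, against 1.82, 5.12 and 3.52 CPM in those labelled NC. Every library of both hairpin labels lay above every NC library, and groups without overlap were common among tested organoid genes. The log2 fold change was 1.62 ± 0.37 (SE, adjusted p = 0.00537, edgeR) with sh1 and 1.41 ± 0.37 (SE, adjusted p = 0.00680, edgeR) with sh4. Leaving out each library in turn kept both calls, at 1.31 to 2.01 with sh1 and 1.09 to 1.79 with sh4. Part of the HHIP exons, 178 bases, is shared with the antisense RNA HHIP-AS1, which averaged 3.73 ± 1.06 CPM in organoids labelled sh1 and 2.49 ± 0.42 CPM in those labelled sh4, against 1.25 ± 0.29 CPM in NC (SD, n = 3 each). HHIP-AS1 had a log2 fold change of 1.58 (adjusted p = 0.00226, edgeR) and 0.99 (adjusted p = 0.0163, edgeR). It lies on the opposite strand, and the counting's strand setting is unknown here. Whether its reads were kept apart from those of HHIP in the shared bases is therefore not known. HHIP values were fractional in 4 of the 9 organoid libraries.

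PTCH1 was at 71.0, 93.3 and 68.7 CPM in organoids labelled sh1 and 85.2, 69.1 and 84.0 CPM in those labelled sh4, against 80.0, 83.1 and 93.2 CPM in NC. The groups overlapped. The log2 fold change was -0.14 with sh1 (95% interval -0.43 to 0.15) and -0.10 with sh4 (95% interval -0.39 to 0.18).

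Co-receptors differed from each other. GAS1 (chromosome 9, 86944363 to 86947189, minus strand), a membrane-anchored co-receptor, was at 49.1, 58.6 and 54.5 CPM in organoids labelled sh1 and 47.7, 46.9 and 63.1 CPM in those labelled sh4, against 30.8, 38.8 and 28.4 CPM in NC. Both labels lay above NC without overlap, by 0.73 (adjusted p = 0.00295, edgeR) and 0.69 (adjusted p = 0.00215, edgeR) on the log2 scale, under the fold threshold. BOC was at 77.3 to 107.3 CPM in organoids labelled sh1 and 52.0 to 81.0 CPM in those labelled sh4, against 82.2 to 104.3 CPM in NC, with log2 fold changes of -0.06 (adjusted p = 0.804, edgeR) and -0.51 (adjusted p = 0.0233, edgeR).

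SMO (chromosome 7, 129188872 to 129213545, plus strand), the membrane transducer that PTCH1 restrains, was at 116.2, 125.0 and 102.6 CPM in organoids labelled sh1 and 99.2, 102.8 and 111.9 CPM in those labelled sh4, against 63.9, 70.2 and 66.4 CPM in NC. Neither hairpin label overlapped NC, but a log2 fold change of 0.78 (adjusted p = 8.31e-05, edgeR) with sh1 and 0.65 (adjusted p = 8.94e-05, edgeR) with sh4 stayed under the fold threshold. Groups that did not overlap were found for 62.1% of tested organoid genes with sh1 and for 73.1% with sh4.

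Among the transcription factors, GLI1 was at 14.04, 16.48 and 7.23 CPM in organoids labelled sh1 and 6.69, 7.29 and 5.99 CPM in those labelled sh4, against 5.41, 5.76 and 6.22 CPM in NC. Of the sh1 libraries 2 were far above NC and 1 only just, and the sh4 libraries overlapped NC. GLI1 rose with sh1 by 1.12 ± 0.27 (log2, SE, adjusted p = 0.00694, edgeR), and its log2 fold change with sh4 was 0.20 (adjusted p = 0.530, edgeR). Without sh1 replicate 2 the sh1 value was 0.88 (adjusted p = 0.0271, edgeR), which ends the call. Over all 9 fits that left out 1 library it ranged from 0.88 to 1.38, with adjusted p from 3.09e-04 to 0.0302 (edgeR).

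GLI3 was at 76.8, 94.7 and 77.3 CPM in organoids labelled sh1 and 46.9, 56.3 and 58.8 CPM in those labelled sh4, against 130.4, 133.5 and 128.1 CPM in NC. The order NC, sh1, sh4 from high to low held without any overlap, where 59.2% of tested genes had no overlap between sh1 and sh4. GLI3 fell with sh4 by 1.27 on the log2 scale (SE 0.10, adjusted p = 5.21e-06, edgeR), and the log2 fold change with sh1 was -0.66 (adjusted p = 7.18e-04, edgeR). GLI2 (chromosome 2, 120735623 to 120992653, plus strand), the main activator of the family, was at 28.1, 33.1 and 23.1 CPM in organoids labelled sh1 and 18.1, 19.0 and 22.4 CPM in those labelled sh4, against 31.9, 36.3 and 36.5 CPM in NC. Its log2 fold change was -0.31 (adjusted p = 0.0842, edgeR) with sh1, overlapping NC, and -0.82 (adjusted p = 5.08e-04, edgeR) with sh4, without overlap.

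Between the organoids labelled sh1 and those labelled sh4, edgeR called 0 of the 9 members and DESeq2 also 0, with 4 at an unadjusted p under 0.05, where 19% of all tested genes were called. The log2 differences of sh1 over sh4 with an adjusted p under 0.05 were those of GLI1 at 0.92 (adjusted p = 0.0167, edgeR), GLI3 at 0.62 (adjusted p = 0.00120, edgeR) and GLI2 at 0.50 (adjusted p = 0.0137, edgeR). SHH was at 0.70 (adjusted p = 0.375, edgeR). Leaving out sh1 replicate 3 moved GLI1 to 1.16, past the threshold.

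**Figure D2:**
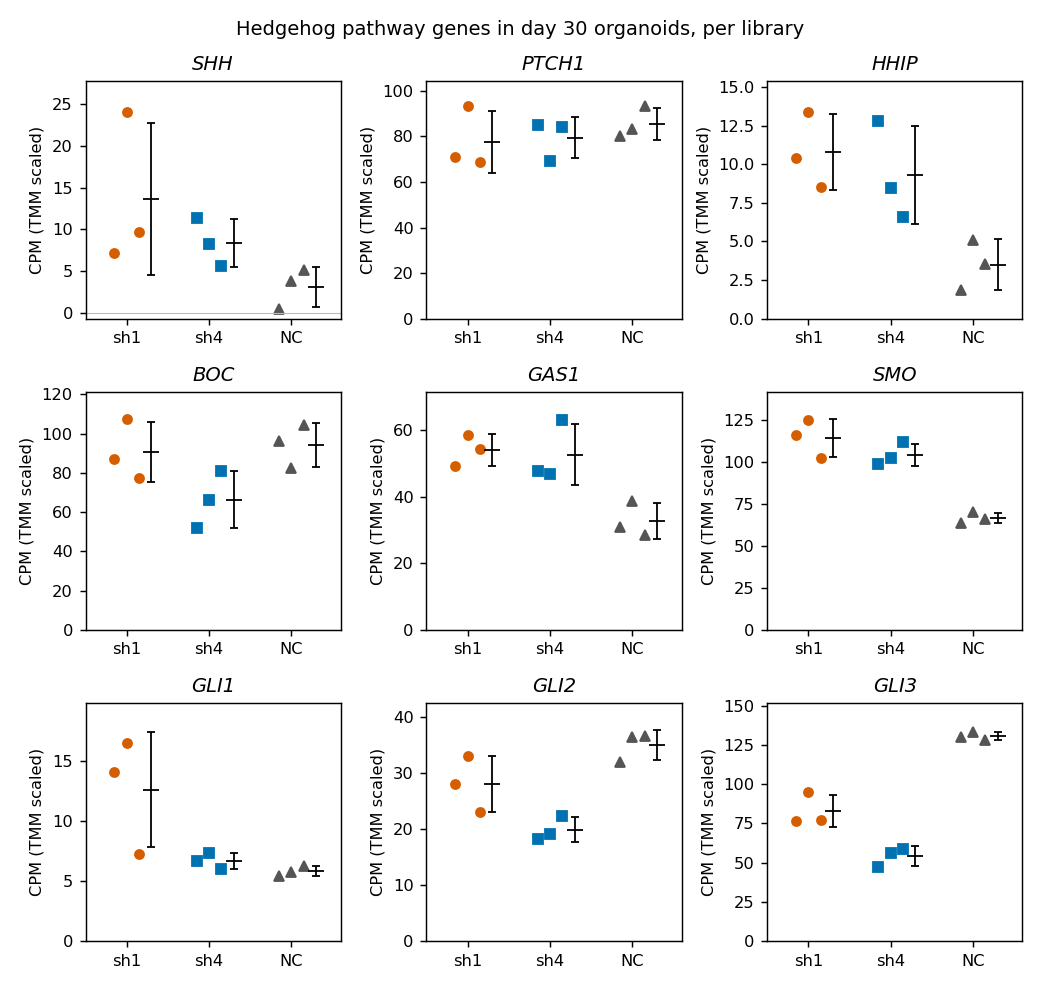
CPM (TMM scaled) of the 9 members in day 30 organoids, 1 point per library and n = 3 per group, with the mean and SD beside each group. HHIP, SHH, GAS1 and SMO lie above NC in libraries labelled sh1 and sh4, GLI3 lies below NC in both, and GLI1 is high in 2 of the 3 sh1 libraries.

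Levels of different genes are set side by side here per kilobase of annotated exon. That length joins the exons of all annotated transcripts of a gene, and the transcripts present were not determined, so the order is approximate. In NC organoids SMO was highest at 15.5 ± 0.74 CPM per kb, followed by GLI3 at 11.9 ± 0.24, GAS1 at 11.6 ± 1.92, BOC at 9.12 ± 1.08, PTCH1 at 5.15 ± 0.42, GLI2 at 4.75 ± 0.36, GLI1 at 1.38 ± 0.10, SHH at 0.62 ± 0.48 and HHIP at 0.29 ± 0.14 CPM per kb (SD, n = 3). The neighbours GLI3 and GAS1, GAS1 and BOC, PTCH1 and GLI2, and SHH and HHIP had overlapping ranges of mean ± SD. In NC NPCs the order was BOC at 16.1 ± 1.14, GLI3 at 14.8 ± 1.08, PTCH1 at 2.54 ± 0.14, HHIP at 2.36 ± 0.18 and GLI1 at 0.64 ± 0.05 CPM per kb (SD, n = 5), where BOC overlapped GLI3 and PTCH1 overlapped HHIP. HHIP was below GLI1 in the knockdown NPCs, at 0.56 ± 0.12 against 0.97 ± 0.07 CPM per kb with sh1 and 0.52 ± 0.10 against 1.92 ± 0.34 CPM per kb with sh4. With sh1 this order rests on the lengths used, 12074 bases for HHIP and 4204 for GLI1. In CPM HHIP was above GLI1 with sh1, at 6.81 ± 1.45 against 4.08 ± 0.29, and below it with sh4, at 6.23 ± 1.20 against 8.05 ± 1.41 (SD, n = 5 each).

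**Figure D3:**
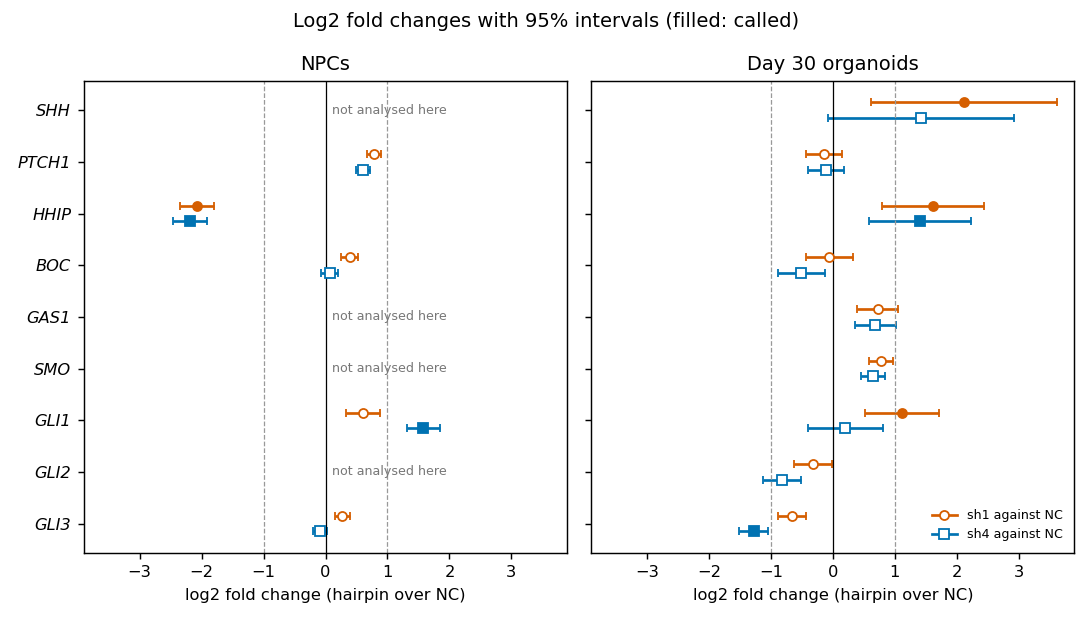
Log2 fold change of each member (hairpin over NC) with its 95% interval, for NPCs at left and organoids at right. Filled symbols are called genes and dashed lines mark the fold threshold of 1. HHIP is at -2.08 and -2.19 in NPCs and at 1.62 and 1.41 in organoids.

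The difference between systems was tested directly for the 5 members in both tables, as the mean effect of both hairpins over NC in NPCs minus the same in organoids. HHIP differed by -3.63 ± 0.30 (log2, SE, adjusted p = 1.13e-10, edgeR) and GLI3 by 1.07 ± 0.09 (log2, SE, adjusted p = 3.21e-10, edgeR), and both were called. PTCH1 at 0.83 (adjusted p = 1.34e-07, edgeR) and BOC at 0.52 (adjusted p = 0.00157, edgeR) stayed under the fold threshold, and GLI1 was at 0.45 (adjusted p = 0.0855, edgeR). Over the 10020 genes tested in both systems 34.4% were called in this contrast and 78.6% had an adjusted p under 0.05. KDM2A was lowered in one system only, and its own difference was -1.05, so the systems differ in the measured knockdown as well as in cell make-up, and these cannot be told apart.

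Ratios of counts within a library do not depend on scaling. A pair of them was chosen after the values were seen. GLI1 per 100 GLI3 counts sets an activator gene against a gene whose product can be a repressor or an activator. HHIP per 100 PTCH1 counts sets both ligand-binding inhibitors against each other. The genes were already seen to differ, so the p-values of the ratios add no support. The adjustment over 8 tests leaves out the pairs that were not chosen. In NPCs HHIP per 100 PTCH1 was 9.39 ± 2.12 with sh1 and 9.85 ± 2.53 with sh4, against 68.0 ± 6.51 in NC (SD, n = 5 each, exact two-sided permutation p = 0.0079 each, 0.0212 adjusted over 8 tests). The ratio was lower in 5 of 5 libraries of each hairpin than in any NC library. In organoids it was 13.8 ± 1.24 in those labelled sh1 and 11.7 ± 3.62 in those labelled sh4, against 4.07 ± 1.95 in NC (SD, n = 3 each). Each organoid comparison gave an exact permutation p = 0.1, the smallest that 3 against 3 libraries allow.

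GLI1 per 100 GLI3 in NPCs was 2.10 ± 0.28 with sh1 and 5.33 ± 1.19 with sh4, against 1.66 ± 0.23 in NC (SD, n = 5 each). The exact two-sided permutation p was 0.0476 with sh1 (0.0952 adjusted over 8 tests), which does not pass, and 0.0079 with sh4 (0.0212 adjusted). In organoids the ratio was 15.02 ± 4.92 in those labelled sh1 and 12.5 ± 2.08 in those labelled sh4, against 4.44 ± 0.37 in NC (SD, n = 3 each, exact permutation p = 0.1 each). All 6 hairpin libraries of the organoids, at 9.36 to 18.3, lay above the NC range of 4.15 to 4.85. With the label sh4 GLI3 was at -1.27 and GLI1 at 0.20 (log2), so the higher ratio there came mainly from lower GLI3. With the label sh1 GLI3 was at -0.66 and GLI1 at 1.12. Counts of GLI3 do not tell its repressor form from its activator form.

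**Figure D4:**
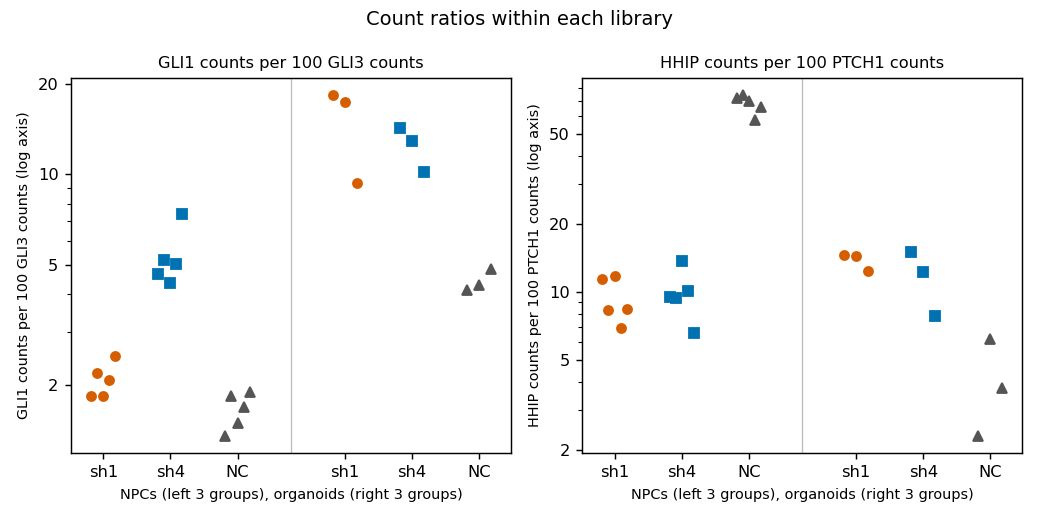
Count ratios per library on log axes, GLI1 per 100 GLI3 at left and HHIP per 100 PTCH1 at right, with n = 5 per NPC group and n = 3 per organoid group. HHIP per 100 PTCH1 lies lower with hairpins than in NC in NPCs and higher with hairpins than in NC in organoids.

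The genes whose profile across libraries was most like that of HHIP were found by the root mean square difference of log2(CPM + 0.5) centred on the NC mean. In NPCs, over 15 libraries and 7924 genes, they were DNAJC15 (0.25), MAT2A (0.25) and CNTN3 (0.25). In organoids, over 9 libraries and 11883 genes, they were DEPTOR (0.28), AHR (0.29) and GUCY1A1 (0.32). These are descriptions of likeness over few libraries.

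Wider lists of pathway genes place the members among their neighbours. Among 10 genes for ligands and ligand release, DISP1 and SCUBE2, which release lipid-bearing ligand from the producing cell, fell with both hairpins in NPCs, by log2 fold changes of -1.04 and -1.40 for DISP1 and -1.21 and -1.37 for SCUBE2 with sh1 and sh4. These were 2 of 4 tested genes, with a list median of -0.997 with sh1 and -1.38 with sh4 beside 0.11 and 0.03 over all tested NPC genes. In organoids 3 of 10 rose with both labels: DISP1 (1.68 and 1.70), SCUBE3 (1.32 and 1.40) and HHAT (1.11 and 1.32), the acyltransferase that adds palmitate to Hedgehog ligands. SCUBE2 was at -1.24 with sh1 and -0.39 with sh4 in organoids and was called with neither. The organoid list median was 1.11 with sh1 and 0.53 with sh4, beside 0.02 and -0.01 over all genes. The list also holds PORCN (-0.28 and -0.55), an acyltransferase of WNT ligands and not of Hedgehog ligands. The sh4 median depends on such members, since it lies between HHAT at 1.32 and SCUBE1 at -0.25. No ligand gene was among the 4 tested in NPCs, so the list medians of NPCs and organoids cover unlike sets of genes. DISP1 was at 21.4 ± 0.73 CPM in sh1 NPCs and 16.6 ± 1.16 CPM in sh4 NPCs, against 43.8 ± 2.77 CPM in NC NPCs (SD, n = 5 each), and at 45.4 ± 9.58 CPM in organoids labelled sh1 and 46.0 ± 6.23 CPM in those labelled sh4, against 14.1 ± 1.12 CPM in NC (SD, n = 3 each). Over all tested genes 4.62% were called higher and 8.48% lower with both hairpins in NPCs, and 10.2% higher and 6.18% lower with both in organoids. These shares also stand beside the counts with both hairpins in the lists that follow.

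Among 15 receptor, co-receptor and surface inhibitor genes, HHIP was the 1 of 8 tested in NPCs that fell with both hairpins. In organoids 3 of 15 rose with both labels, HHIP, LRP2 (1.26 and 2.53), a large endocytic receptor that takes up SHH, and GPC3 (2.31 and 4.10), a glypican that binds Hedgehog ligands. PTCHD1, a relative of PTCH1, fell with both (-1.98 and -3.35). The list medians were close to those of all genes, at 0.12 with sh1 and -0.05 with sh4 in organoids. GPC3 averaged 673 ± 43.7 CPM in organoids labelled sh1 and 2323 ± 1107 CPM in those labelled sh4, against 136 ± 33.9 CPM in NC (SD, n = 3 each), and it is also known from fetal liver.

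Of 29 genes of the intracellular chain, 18 were tested in NPCs and 1 fell with both hairpins: EVC2, a ciliary protein that acts with SMO, at -2.45 and -4.44. It was low, at 0.74 ± 0.24 CPM in sh1 NPCs and 0.18 ± 0.09 CPM in sh4 NPCs, against 4.05 ± 0.62 CPM in NC NPCs (SD, n = 5 each). In organoids 2 of 29 rose with sh1 and 7 fell with sh4, beside 12.1% of all tested genes called higher with sh1 and 15.5% called lower with sh4. Among the 7 were GLI3 and the kinase genes PRKACB (-0.88 and -1.40), GSK3B (-0.49 and -1.27) and DYRK2 (-0.87 and -1.45). The list median was 0.17 with sh1 and -0.32 with sh4.

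The 17 primary cilium genes tested in NPCs had log2 fold changes of -0.77 to 0.78 with sh1 and -0.81 to 0.62 with sh4. Of 31 tested in organoids, 1 was called with sh1 and 5 with sh4, where 20% and 35.5% of all tested genes were called. They included KIF3A (-0.68 and -1.67), a motor subunit that builds the cilium, TTBK2 (-0.57 and -1.67), a kinase that starts its assembly, TCTN1 (0.84 and 1.13) of the transition zone, and INPP5E (-0.44 and -1.01), a ciliary lipid phosphatase. The list medians were 0.15 with sh1 and 0.02 with sh4.

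The next list joins factors of the ventral neural tube with other GLI targets, and its genes moved both ways. In NPCs 3 of 10 tested passed with both hairpins: HHIP fell, and the forkhead genes FOXL1 (2.07 and 2.54) and FOXC2 (1.91 and 2.95) rose at levels of at most 1.51 CPM on average. The NPC list median was 0.82 with sh1 and 0.65 with sh4. In organoids 2 of 19 rose with both labels and 3 fell. RAB34, a small GTPase needed for cilium formation, averaged 78.7 ± 6.59 CPM with sh1 and 108 ± 6.87 CPM with sh4, against 29.6 ± 0.57 CPM in NC (SD, n = 3 each), at 1.41 and 1.87 on the log2 scale. SOX9, a progenitor transcription factor, fell by 1.01 and 1.83, to 68.1 ± 11.6 CPM with sh1 and 38.6 ± 6.40 CPM with sh4, against 137 ± 16.8 CPM in NC. NKX2-1, the transcription factor of the ventral forebrain, averaged 0.02 CPM with sh1 and had no count in the 3 libraries labelled sh4, against 1.64 ± 0.36 CPM in NC (SD, n = 3). Against a floor of 3 counts over the group, NKX2-1 was at least 26.9-fold lower with sh4. Other ventral factors were lower too: NKX6-1 (-1.06 and -2.23), OLIG2 (-1.64 and -2.68), SIM1 (-2.85 and -1.13) and OLIG1 (-0.90 and -1.25). FOXA2 was higher (0.26 and 1.26). Of these only NKX6-1 was called with both labels, OLIG1 was called with neither, and group means were at most 2.90 CPM. They were named after their values were seen. The list medians were 0.12 with sh1 and 0.01 with sh4, and the sh4 median was the same with NKX2-1 at its bound.

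Floor plate genes, which share SHH with the members, included 4 of 9 that rose and 2 that fell with both labels in organoids. SULF1 (4.15 and 3.46), which edits heparan sulfate, SPON1 (1.48 and 2.10), a secreted floor plate protein, and FOXA1 (3.24 and 4.19), a forkhead factor, rose, while NTN1 (-2.31 and -2.03), the axon guidance gene of the floor plate, fell. The list medians were 1.48 with sh1 and 1.42 with sh4. FOXA1 is also an endoderm gene. Dorsal neural genes included 3 of 17 that rose and 4 that fell with both labels in organoids, among them LMX1A (3.84 and 3.15) and MSX2 (1.23 and 1.26) of the roof plate, which rose, and PAX6 (-3.56 and -4.41), which fell. Their medians were 0.73 with sh1 and 0.04 with sh4. In NPCs ATOH1 (-3.35 and -3.11) and BMP6 (-1.66 and -1.45) fell, 2 of 9 tested, with medians of 0.32 and -1.47.

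**Figure D5:**
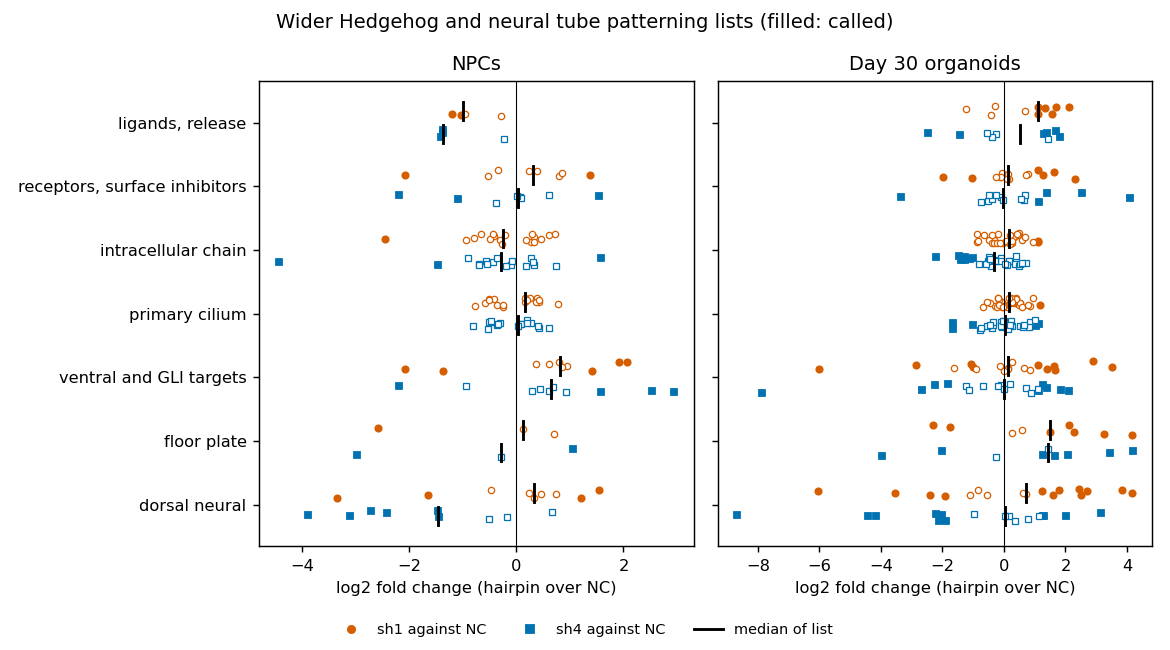
Log2 fold changes (hairpin over NC) of the tested genes of 7 pathway and patterning lists, NPCs at left and organoids at right, 1 symbol per gene, filled where called, with a bar at the list median (the values of NKX2-1 and DBX1 with sh4 in organoids are fitted against no counts and are no bounds). Of the list of ligands and ligand release, the 4 genes tested in NPCs, none a ligand gene, have medians of -0.997 and -1.38. The wider set of 10 tested in organoids, which includes PORCN of WNT ligands, has medians of 1.11 and 0.53.

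Markers of other cell types moved with the organoid labels, where 10.2% of all tested genes were called higher and 6.18% lower with both. Summed over 13 mesenchyme markers the level was 20878 to 23232 CPM in organoids labelled sh1 and 39763 to 48847 CPM in those labelled sh4, against 3043 to 4450 CPM in NC, and 9 of the 13 rose with both labels. The 11 endoderm and notochord markers summed to 3165 to 9174 CPM with sh1 and 18079 to 62204 CPM with sh4, against 85.6 to 441 CPM in NC, and 5 of 10 tested rose and 1 fell with both. With both labels most of this sum was AFP. Its level averaged 4569 ± 2304 CPM with sh1 and 28428 ± 19073 CPM with sh4, against 96.2 ± 124 CPM in NC (SD, n = 3 each). TBXT, listed as a notochord marker, had no count with sh1 or sh4, against 1.80 ± 1.80 CPM in NC (SD, n = 3, range 0.64 to 3.87). At a floor of 3 counts over the group, TBXT was at least 32.8-fold lower with sh1 and 29.4-fold lower with sh4. NOTO had no count with sh1, and MYOD1 of the muscle list and PRDM14 of the pluripotency list had none with sh4. The 9 choroid plexus markers summed to 994 to 2152 CPM with sh1 and 4300 to 9108 CPM with sh4, against 139 to 282 CPM in NC, and 7 of 9 rose with both. Neural crest markers summed to 723 to 877 CPM with sh1 and 235 to 525 CPM with sh4, against 303 to 421 CPM in NC, with 1 of 8 up with both, near the share over all tested genes. Muscle markers summed to 97.8 to 104 CPM with sh1 and 178 to 206 CPM with sh4, against 61.5 to 68.0 CPM in NC, with 2 of 7 up and 2 down with both.

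Summed levels of neural markers were lower than in NC. Over all tested organoid genes 6.18% were called lower with both labels and 15.5% lower with the label sh4. The 10 neural progenitor markers summed to 2730 to 2870 CPM with sh1 and 1316 to 1748 CPM with sh4, against 3178 to 3656 CPM in NC, and 7 of 10 fell with both labels. PROM1, a progenitor surface protein, rose with sh4 (1.20). The 11 neuron markers summed to 2630 to 3216 CPM with sh1 and 292 to 1207 CPM with sh4, against 3708 to 4138 CPM in NC, with 2 down with both. All 11 neuron markers fell with sh4, while with sh1 2 fell and the neurofilament gene NEFM rose, at 856 ± 59.2 CPM with sh1 against 244 ± 59.8 CPM in NC (SD, n = 3 each, log2 fold change 1.81, adjusted p = 0.00992, edgeR). PROM1 and NEFM were chosen after their values were seen. The 10 forebrain markers summed to 96.5 to 180 CPM with sh1 and 37.7 to 65.2 CPM with sh4, against 572 to 631 CPM in NC, with 7 down with both. Pluripotency markers summed to 71.7 to 78.1 CPM with sh1 and 71.6 to 97.8 CPM with sh4, against 674 to 965 CPM in NC, and all 7 tested fell with both. The part of these markers in the organoid values of the Hedgehog genes was not tested.

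The same lists were summed in NPCs, where 4.62% of all tested genes were called higher and 8.48% lower with both hairpins. The share called higher was 6.31% with sh1 and 6.55% with sh4. Progenitor markers summed to 1951 to 2235 CPM with sh1 and 2781 to 3330 CPM with sh4, against 2288 to 2482 CPM in NC, with 3 of 7 up with both hairpins. Mesenchyme markers summed to 4886 to 5947 CPM with sh1 and 5797 to 6651 CPM with sh4, against 6425 to 7148 CPM in NC. The sum was dominated by COL3A1, at 4230 ± 396 CPM with sh1 and 4508 ± 352 CPM with sh4, against 6157 ± 284 CPM in NC (SD, n = 5 each). Of the 10 tested mesenchyme markers 4 rose with sh1, the same 4 and 5 more rose with sh4, and the list medians were 0.83 and 1.45. Pluripotency markers summed to 1652 to 1762 CPM with sh1 and 1504 to 1600 CPM with sh4, against 998 to 1080 CPM in NC, with 5 of 8 up and 1 down with both. Neuron markers summed to 2472 to 2763 CPM with sh1 and 2968 to 3155 CPM with sh4, against 2598 to 3167 CPM in NC, and forebrain markers to 109 to 117 CPM with sh1 and 52.9 to 58.2 CPM with sh4, against 113 to 123 CPM in NC. Neural crest and muscle markers had 1 of 3 and 1 of 6 up with both, with 1 muscle gene down, choroid plexus markers 1 of 7 up and 1 down, and the 3 listed endoderm genes together reached at most 1.09 CPM. The part of these markers in the NPC values was not tested.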

How the data were processed

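RNA was enriched for poly(A) and primed with random hexamers, per the labels' protocols. The authors deposited 1 table of expected counts per system, since 82.4% of NPC values and 91.0% of organoid values are whole. STAR, featureCounts and GRCh38.p13 are named in the submitters' processing notes, while versions, strand setting and the origin of fractions are not stated there. The values were rounded to whole numbers. Organoid identifiers were matched to symbols (42085 of 61544), and gene positions and exon lengths come from GENCODE release 29 (GRCh38). Genes were filtered with filterByExpr (minimum count 10), leaving 9860 in NPCs and 19704 in organoids, scaled by TMM, and tested with edgeR 4.0.16 in R 4.3.3, the 3 groups of a system in 1 fit. Scripts were checked on simulated data. The difference between systems was fitted over all 24 libraries.

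Alternatives were DESeq2 1.42.0, other scalings, no filter, a replicate block, fits of 2 groups, an organoid fit on genes the NPC table lists, and leaving out each library. The members, the 17 gene lists and the rule for named genes were chosen with earlier results of these data known. The rule named KDM2A, the 9 members, up to 4 genes per list with the smallest adjusted p among those called with both hairpins (with 1 hairpin where none was), and the 3 genes most like a member called with both. A few genes chosen this way are not reported here but remain in the counts and medians of their lists. CFAP44 and HHIP-AS1 were named for their shared exons. All replicate pairs differed beyond sampling noise, with a chi-square of 2.65 to 33.4 per degree of freedom in NPCs and 5.53 to 55.4 in organoids. Mitochondrial transcripts took 3.14 to 3.29% of the counts of organoids labelled sh1 and 5.05 to 6.02% of those labelled sh4, against 3.07 to 3.50% in NC.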

Additional observations from a re-analysis of the deposited data

Results flagged for a closer look

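GLI1 in NPC sh4 replicate 5, at 10.473 CPM, stood apart from the other sh4 NPC libraries, at 6.78 to 7.76 CPM, by Dixon's test. It was 1 of 15 groups tested, and chance flags about 1 in 20.

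The effect of the hairpins over NC differed between NPCs and organoids, by edgeR's contrast of NPCs minus organoids, for HHIP at -3.633 (adjusted p = 1.13e-10), GLI3 at 1.067 (adjusted p = 3.21e-10), PTCH1 at 0.831 (adjusted p = 1.34e-07) and BOC at 0.522 (adjusted p = 0.00157) on the log2 scale. By adjusted p alone 78.6% of the genes tested in both systems passed. HHIP was lower than NC in every NPC hairpin library and higher than NC in every organoid hairpin library.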

How the results depend on the processing

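The counts of called members were as reported under DESeq2, its size factors and fits of 2 groups. On genes the NPC table lists, organoids labelled sh1 had 2 called members in place of 3, since SHH was not among those genes. Scaling by library size alone gave 1 called member between organoids labelled sh1 and sh4, where the report has 0 (GLI1 at 1.15). It also moved the median of all genes to -0.28 for organoids labelled sh4 against NC, from -0.01, and organoid log2 fold changes turned negative for GLI1 with sh4 (-0.0737) and KDM2A with sh4 (-0.27) and positive for PTCH1 between sh1 and sh4 (0.20), while GLI2 with sh4 was called at -1.09, which gave 3 called members with sh4 where the report has 2. In NPCs it moved the medians to -0.03 with sh1 and -0.11 with sh4, from 0.11 and 0.03, and BOC with sh4 to -0.0766. Without the filter SHH with sh4 was called in organoids (1.42, adjusted p = 0.0492, edgeR), again 3 called members in place of 2, where leaving out 1 library gave adjusted p from 0.0558 to 0.186.

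Leaving out 1 library at a time gave 1 to 3 called members for organoids labelled sh1 against NC, 0 to 1 for sh1 against sh4 in each system, and 1, 2 and 2 as reported for sh1 in NPCs, sh4 in NPCs and sh4 in organoids. In NPCs the gained member between hairpins was GLI1, at -1.01 without sh1 replicate 5 and -1.03 without sh4 replicate 3. Values near 0 changed sign when 1 library was left out: BOC with sh1 in organoids ranged from -0.193 to 0.0317, KDM2A with sh4 in organoids from -0.0224 to 0.0501, and between organoids labelled sh1 and sh4 PTCH1 ranged from -0.181 to 0.0331 and GAS1 from -0.0355 to 0.194. KDM2A with sh1 in NPCs was at -0.99 without NC replicate 1 and -0.98 without NC replicate 3. The causes were not tested.

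Correlations of the deviations of same-numbered libraries ran from -0.163 to 0.546 in NPCs (median 0.240, against -0.0608 for other pairs) and from -0.254 to 0.0152 in organoids (median -0.0517, against 0.0850). Since not every same-numbered pair was over 0.1, the numbers were not taken as pairs, although same-numbered NPC libraries tended to deviate together. With the replicate block, 1 member was called with sh1 and 2 with sh4 in NPCs, and 3 with sh1 and 2 with sh4 in organoids, as without it. In NPCs 4 of 15 libraries correlated best with their own number and in organoids 0 of 9. Organoid groups of 3 libraries and SHH, HHIP and GLI1 levels of a few CPM limit the precision.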
